A study of Mus musculus with 20 samples.

Results

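The genes described here are the cytosolic ribosomal protein genes, the parts list of the ribosome that translates nuclear messages, measured by RNA-seq in embryonic mouse hearts that lack the histone methyltransferase KMT2D in different cell populations. Members were taken by symbol alone: every row of the count table named Rpl or Rps followed by a number, with an optional a, x or l and a further number, plus Rplp0, Rplp1, Rplp2 and Rpsa. This gave 86 of 33495 rows under 82 symbols. Of these, 79 rows were the parent loci, 49 for the large 60S subunit and 30 for the small 40S subunit, and 7 were rows that carry a parent's symbol but are described in the table as predicted genes or pseudogenes, called copies here. The copies were 4 rows named Rpl41 (Gm10076, Gm10180, Gm10736 and Gm3699), 2 named Rps13 (Rps13-ps1 and Gm10159) and 1 named Rps27 (Gm9846), and the parents of these genes were not among the rows used here.

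The 20 libraries came from C57BL/6 embryos, in which Cre recombinase deleted floxed Kmt2d. Mesp1Cre, active in early mesoderm, gave 4 mutant and 4 control whole hearts at E9.0. Tnnt2::Cre, active in cardiomyocytes, gave 3 mutant and 3 control whole hearts at E11.5, and Mef2cAHF::Cre, active in the anterior heart field, gave 3 libraries labelled mutant and 3 labelled control of right ventricle with outflow tract at E11.5. Mutants carried Cre with Kmt2d fl/fl and mTmG/+, and controls carried Cre with Kmt2d fl/+ and mTmG/+, so that Cre, the mTmG reporter and at least 1 floxed allele were common to all groups. For Mef2cAHF::Cre the sample titles and the table's column names give opposite genotypes. Groups here follow the titles, as labelled mutant and labelled control, and under the column names every sign given for this line turns round. Whole tissue was sequenced, so that in every comparison below fewer cells of a type and less RNA per cell cannot be told apart. Replicates were separate samples by their labels, and the p-values measure the spread between these samples.

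Each ribosomal protein occupies a fixed place in a 40S or 60S subunit, where it helps ribosomal RNA fold and holds it in shape. Most of the proteins are needed in equal number, surplus protein is degraded, and the genes share a pyrimidine tract at the start of the messenger RNA, the TOP motif, through which mTORC1 signalling adjusts their translation. Loss of one copy of several of these genes causes Diamond-Blackfan anaemia, in which red cell precursors fail and heart malformations can occur.

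The start sites of the members on which the results turn are shown from 60 bases before to 20 bases after the RefSeq start (GRCm38.p6), 5′ to 3′ on the gene's strand, with the longest run of C and T within 20 bases of the start in capitals. They are shown because a TOP tract, where a gene has one, begins at the start of the message. Rpl13 is at chr8:123102290-123102369 on the plus strand, Rpl13a at chr7:45128726-45128805 on the minus strand, Rpl18 at chr7:45718011-45718090 on the plus strand, Rpl39 at chrX:37085203-37085282 on the minus strand, Rps27l at chr9:66946026-66946105 on the plus strand and Rps28 at chr17:33824543-33824622 on the minus strand.
Rpl13: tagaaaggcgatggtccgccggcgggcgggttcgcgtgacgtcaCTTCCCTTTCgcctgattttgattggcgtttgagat
Rpl13a: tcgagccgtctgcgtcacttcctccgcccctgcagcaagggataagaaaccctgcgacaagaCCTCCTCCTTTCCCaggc
Rpl18: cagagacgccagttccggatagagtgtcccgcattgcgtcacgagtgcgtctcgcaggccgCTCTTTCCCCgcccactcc
Rpl39: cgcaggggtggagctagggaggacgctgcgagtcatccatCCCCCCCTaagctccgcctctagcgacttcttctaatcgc
Rps27l: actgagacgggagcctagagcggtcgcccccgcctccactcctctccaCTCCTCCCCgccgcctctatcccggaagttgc
Rps28: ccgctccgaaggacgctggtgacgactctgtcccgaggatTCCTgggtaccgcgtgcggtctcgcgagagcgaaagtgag
The run was 14 bases long in Rpl13a, 10 in Rpl13 and in Rpl18, 9 in Rps27l, 8 in Rpl39 and 4 in Rps28. The marked run lay within the first bases of the message in Rpl13a and Rpl18. In the other 4 genes it lay wholly before the annotated start. Where runs tied in length, the first was marked. Unmarked runs of the same length crossed the start in Rps28 and lay after it in Rpl39. A run marked here is therefore not in itself a TOP motif. Of the 79 parent loci, 58 were matched, with 70 start sites, and the longest run had a median of 7 bases (middle 50% of sites, 5 to 10) against 5 (4 to 6) over all 32851 start sites of the table. Rpl17, Rpl23a and Rplp1 had no entry.

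In windows from 250 bases before to 50 after the start, searched on both strands, CTTCC was present in 92.9% of member sites and 71.4% of all sites, and CTTTC in 81.4% and 57.3%. CCGGAAG, a core bound by ETS factors whose reverse complement holds CTTCC, was present in 35.7% of member sites and 8.86% of all. AAGATGG, the core of the YY1 motif, was present in 15.7% against 6.34%, the GC box GGGCGG in 58.6% against 35.7%, and the TATA box TATAAA in 7 of the 70 member sites against 13.6% of all. These matches describe letters in a window and no binding was measured.

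Reads of these genes are hard to place, because the mouse genome holds many copies of them. Windows of 100 bases, the read length, were taken from each parent's coding sequence and searched in mm9, and 76 of the 79 parents had a window that matched another place with at most 2 mismatches. For 68 parents most windows did so, the median parent had 8 such places and the highest number was 98. With identical windows only, 72 parents were affected and the median share of windows was 70.3%. The extreme case was Rpl41, whose coding sequence of 78 bases was the same in all 4 rows, shown here from Gm10076 (mm9, chr14:106081044-106081431, plus strand) because no read inside it can be given to 1 row.
Rpl41 (Gm10076): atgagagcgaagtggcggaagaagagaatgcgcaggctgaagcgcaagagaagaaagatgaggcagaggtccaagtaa
The other extreme was Rps27l, a paralogue of Rps27 with windows that matched 1 other place in 14.1% of cases and never without a mismatch. Its coding sequence (mm9, gene at chr9:66793893-66797323, plus strand) is given after that of the Rps27 copy Gm9846 (chr9:114891571-114891825, minus strand), with the 61 of 255 bases at which it differs in capitals, since this is why its counts can be kept apart from those of Rps27.
Rps27 (Gm9846): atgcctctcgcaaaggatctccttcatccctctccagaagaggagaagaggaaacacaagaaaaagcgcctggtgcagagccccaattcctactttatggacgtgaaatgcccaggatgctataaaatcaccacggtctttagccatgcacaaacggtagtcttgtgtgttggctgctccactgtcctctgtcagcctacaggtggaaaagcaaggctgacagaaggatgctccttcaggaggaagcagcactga
Rps27l: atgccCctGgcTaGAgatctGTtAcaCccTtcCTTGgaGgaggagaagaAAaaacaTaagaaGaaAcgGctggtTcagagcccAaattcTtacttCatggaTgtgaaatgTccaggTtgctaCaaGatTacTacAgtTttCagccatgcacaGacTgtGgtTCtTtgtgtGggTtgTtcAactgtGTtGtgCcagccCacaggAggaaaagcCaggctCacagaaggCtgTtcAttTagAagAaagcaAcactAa
The pair was identical at 76.1% of bases. The Rps13 copies, in contrast, differed at 2 of 456 coding bases. The values below are those the authors' counting gave, and how the counting treated reads with several places is not given in the sources used here. In addition, exons of 14 parents overlapped a gene on the other strand and those of 16 a gene on the same strand, mostly small nucleolar RNAs of their introns, and these members are uncertain because the counting is not stated to use strand.

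Total counts ran from 21727258 to 45341870 per library. All 8 cardiomyocyte markers were detected in every library. The targeted gene, Kmt2d (Mll2 in the table), was counted over its whole length, so that its level is no check of the deleted exons. In Mesp1Cre it read 162.7, 153.6, 157.7 and 149.8 CPM (counts per 1e6 after TMM scaling) in controls and 125.6, 140.2, 138.2 and 128.6 in mutants, and in Tnnt2::Cre 166.5, 156.5 and 126.5 in controls and 113.4, 118.0 and 122.0 in mutants. In both lines the groups did not overlap, and neither difference passed the test (log2 fold change -0.21, SE 0.07, adjusted p = 0.0764, and -0.35, SE 0.12, adjusted p = 0.327). In Mef2cAHF::Cre it read 142.4, 151.8 and 152.7 in the libraries labelled control and 182.7, 184.0 and 189.7 in those labelled mutant, so that the level went against the label (0.32, SE 0.06, adjusted p = 0.0359). That call was lost on leaving out any library of this line other than labelled control replicate 2 (0.28 to 0.34, adjusted p 0.0605 to 0.152).

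Ribosomal protein rows took between 2.17 and 3.91% of all counts. In Mesp1Cre the share was 3.07, 2.83, 3.04 and 3.16% in controls and 3.48, 3.50, 3.33 and 3.39% in mutants (mean 3.02 ± 0.140 and 3.42 ± 0.0809, SD, n = 4 and 4), with every mutant above every control. In Tnnt2::Cre it was 3.55, 3.24 and 3.65% in controls and 3.83, 3.79 and 3.91% in mutants (3.48 ± 0.214 and 3.84 ± 0.0640, SD, n = 3 and 3), again without overlap. The right ventricle and outflow tract libraries of Mef2cAHF::Cre were lowest, at 2.21, 2.66 and 2.46% in those labelled control and 2.17, 2.23 and 2.17% in those labelled mutant (2.44 ± 0.226 and 2.19 ± 0.0336, SD, n = 3 and 3), and these groups overlapped.

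A share of counts moves with whatever else fills the library. The mitochondrial genome took 22.03 to 23.4% of counts in Mesp1Cre controls and 13.3 to 15.7% in mutants, 24.8 to 28.2% and 30.1 to 30.7% in the Mef2cAHF::Cre libraries labelled control and mutant, and 19.5 to 25.1% and 21.7 to 23.9% in Tnnt2::Cre controls and mutants. Hemoglobin genes took 0.504 to 1.69% in Mesp1Cre controls and 0.205 to 0.779% in mutants, against 9.05 to 14.7% and 2.07 to 11.8% in Tnnt2::Cre. The part of these shares in the ribosomal protein share was not tested. After TMM scaling, which is little moved by a few abundant genes, the difference between genotypes was no longer there. TMM is used for the CPM values and the main edgeR fits, but not for FPKM. The summed level of the members was 29885 to 32908 CPM in Mesp1Cre controls and 30466 to 33096 in mutants. In Tnnt2::Cre it was 35138 to 41605 in controls and 35121 to 42623 in mutants. In both lines these ranges overlapped. The Mef2cAHF::Cre libraries stayed lowest, at 20708 to 24187 CPM in those labelled control and 21875 to 22967 in those labelled mutant.

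**Figure D1:**
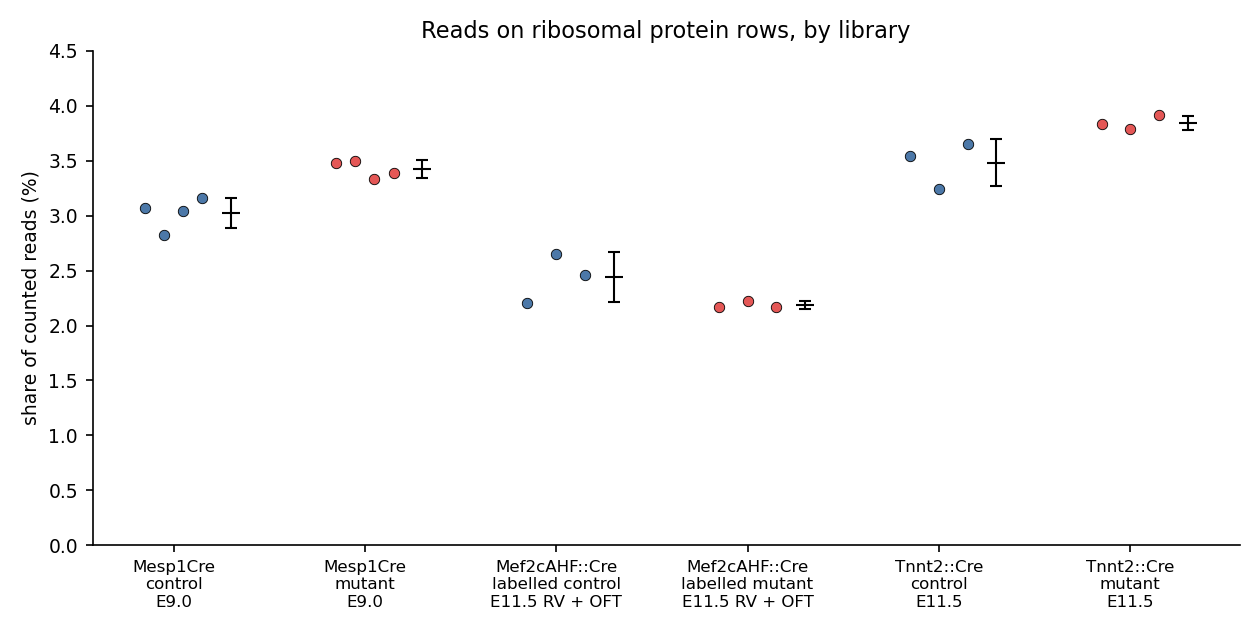
Share of all counts in the table on the 86 ribosomal protein rows (vertical axis, percent) in each of the 20 libraries (points) by line and genotype, with mean and SD. Mutants lie above controls without overlap in Mesp1Cre and Tnnt2::Cre on this unscaled share, though not after TMM scaling, and the Mef2cAHF::Cre libraries are lowest.

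Compared per length, on the authors' FPKM scale (reads scaled to gene length and library total), the members did not stand at one level, although the ribosome holds most of their proteins in equal number. In Mesp1Cre controls the highest were Rps24, a Diamond-Blackfan gene, at 1318 ± 71.9, Rpl32 at 1293 ± 66.2 and Rps23, which lines the decoding centre, at 1290 ± 75.8 (SD, n = 4), and these 3 did not differ beyond their spread. The median member stood at 274.7 there. In Tnnt2::Cre controls Rpl32 at 1802 ± 143, the stalk protein Rplp1 at 1777 ± 232 and Rps25 at 1681 ± 210 led (SD, n = 3), again within their spread, with a median member at 304.1. Apart from the 5 paralogues Rpl3l, Rpl7l1, Rpl22l1, Rpl39l and Rps27l, the lowest was Rps19 at 28.7 in Tnnt2::Cre controls and Rpl13a at 32.1 in Mesp1Cre controls. FPKM was divided by annotated lengths of 309 to 5741 bases, 1.04 to 12.2 times the coding length, so the order of the members also depends on the annotated lengths.

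**Figure D2:**
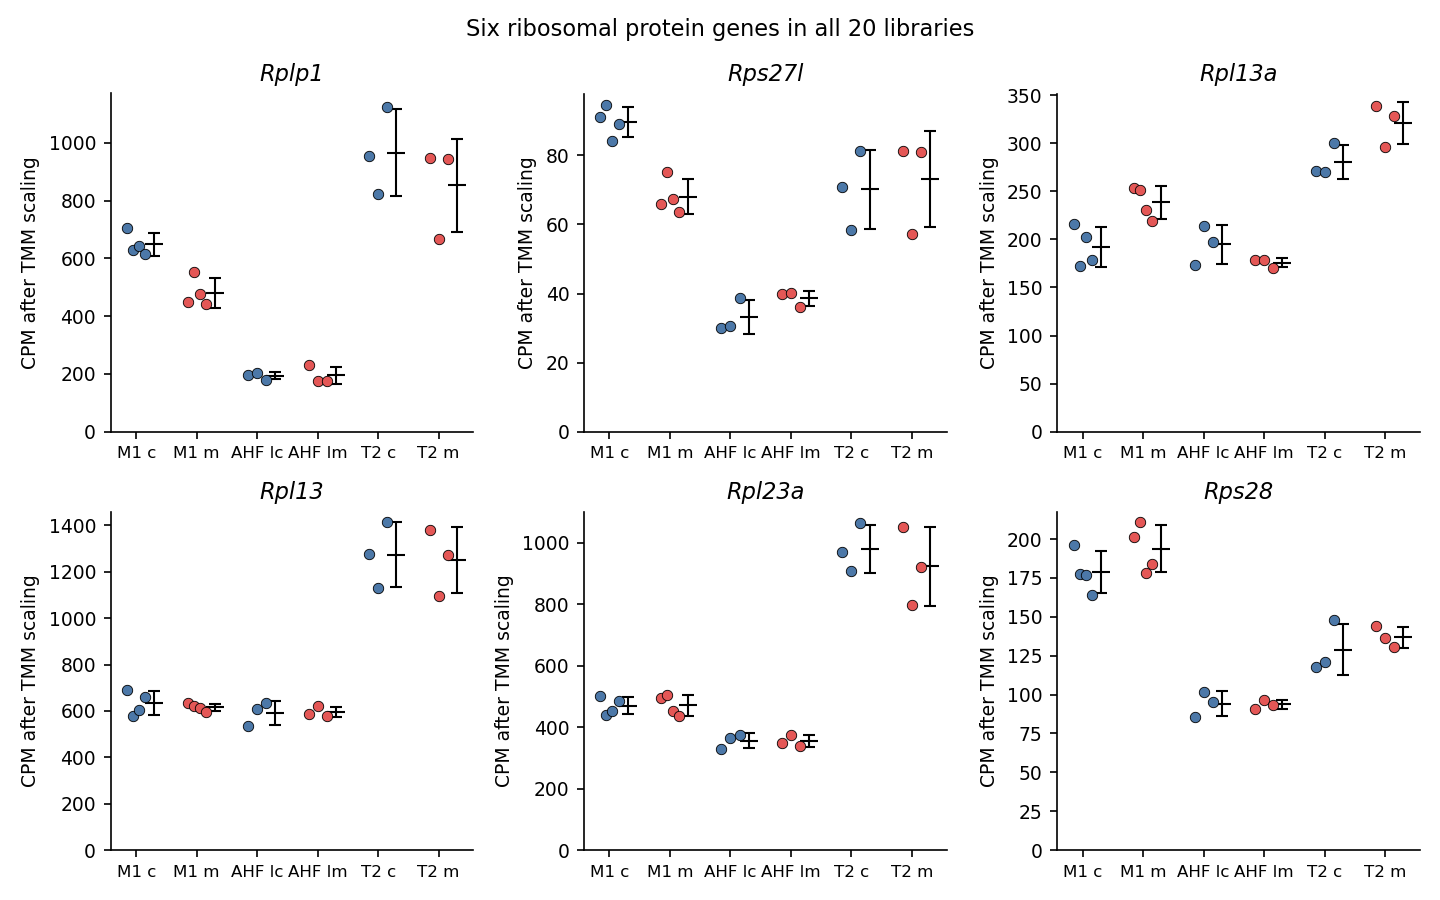
CPM after TMM scaling (vertical axis) of the members on which the results turn, in each library (points) with mean and SD by group. On the horizontal axis M1 c and m are Mesp1Cre control and mutant, AHF lc and lm are Mef2cAHF::Cre labelled control and labelled mutant, and T2 c and m are Tnnt2::Cre control and mutant. Rplp1 and Rps27l are lower and Rpl13a is higher in the 4 Mesp1Cre mutants than in the 4 controls.

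The paralogues stood at very different shares of their parents. Rpl22l1, which can take the place of Rpl22 in the 60S subunit, had the higher FPKM of the pair and the lower CPM, since the annotated length was 1.29 times the coding length for Rpl22l1 and 7.52 times for Rpl22. Mean CPM in Mesp1Cre controls was 125.4 for Rpl22l1 and 265.1 for Rpl22. Rpl22l1 was at 288 ± 21.7% of the FPKM of Rpl22 in Mesp1Cre controls and 235 ± 24.4% in mutants (SD, n = 4). It was at 246 ± 32.2% and 244 ± 18.1% in Tnnt2::Cre controls and mutants, and at 230 ± 6.18% and 222 ± 6.96% in the Mef2cAHF::Cre libraries labelled control and mutant (SD, n = 3). In Mesp1Cre Rpl22l1 read 132.1, 103.7, 123.6 and 142.1 CPM in controls and 97.6, 116.9, 97.2 and 107.2 in mutants, groups that overlapped and a difference that did not pass the test (-0.24, SE 0.10, adjusted p = 0.152). Rpl7l1, a preribosomal counterpart of Rpl7, stood at 5.24 to 8.98% of its parent as a group mean. Rpl3l, the striated muscle paralogue of Rpl3, had at most 0.343% of its parent's FPKM in any library and 0 to 39 counts, and Rpl39l, known from testis, at most 0.392% and 0 to 19 counts. The paralogue Rpl10l was not among the rows used here. Rps4y2, a paralogue of Rps4x whose symbol falls outside the rule, was not counted as a member, and was higher at E11.5 than at E9.0 by 0.59 in controls (adjusted p = 0.0018) and by 0.93 in mutants (adjusted p = 0.00165).

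In Mesp1Cre hearts at E9.0, the loss of Kmt2d in the early mesoderm went with 3 changed ribosomal protein genes of 80 tested, while 77 did not pass the test. Rplp1, an acidic protein of the stalk that recruits elongation factors, and Rps27l fell, and Rpl13a, a 60S protein also known from the silencing of inflammatory messages, rose. The members' median log2 fold change was 0.02 (middle 50% from -0.05 to 0.10), against -0.00 (-0.24 to 0.30) over all 15883 genes tested. Among all genes 6.17% rose and 5.29% fell, against 1 and 2 of the 80 members. The remaining 6 rows were too low to be tested in most comparisons: Rpl3l, Rpl39l, Rpl41 (Gm10180), Rpl41 (Gm10736) and Rps13 (Gm10159) in all of them, and Rpl41 (Gm3699) in all but Tnnt2::Cre.

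Rplp1 (ENSMUSG00000007892, mm9 chr9:61761091-61762345, minus strand) read 706.1, 630.1, 643.4 and 614.7 CPM in controls and 449.1, 554.1, 478.2 and 441.4 in mutants (648.6 ± 40.1 and 480.7 ± 51.4, SD, n = 4 and 4). All mutants lay below all controls, with mutant replicate 2 nearest to them, and the log2 fold change was -0.41 (SE 0.08, adjusted p = 0.00655, edgeR). Its partners in the stalk did not pass: Rplp0, which anchors it to the 60S subunit, differed by -0.13 (SE 0.07, adjusted p = 0.268) and Rplp2 by 0.02 (SE 0.07, adjusted p = 0.878). Rps27l (ENSMUSG00000036781), a p53 target in several tissues, read 91.1, 94.6, 84.2 and 89.1 CPM in controls and 65.9, 75.3, 67.3 and 63.7 in mutants (89.7 ± 4.34 and 68.0 ± 5.06, SD, n = 4 and 4). Its groups did not overlap either, and Rps27l dropped by 0.38 (log2, SE 0.08, adjusted p = 0.0129).

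Rpl13a (ENSMUSG00000074129, mm9 chr7:52380928-52391802, minus strand) read 215.9, 171.9, 202.5 and 178.2 CPM in controls and 253.9, 251.3, 230.5 and 218.6 in mutants (192.1 ± 20.6 and 238.6 ± 17.0, SD, n = 4 and 4). Control replicate 1 came closest to the mutants, the groups did not overlap, and Rpl13a rose by 0.33 (SE 0.09, adjusted p = 0.0258). Its exons overlap those of Flt3l and of the small nucleolar RNA genes Snord32a, Snord33 and Snord34 on its own strand. Its call was lost without control replicate 2 (0.28, adjusted p = 0.0803), control replicate 4 (0.29, 0.0749) or mutant replicate 1 (0.31, 0.0668).

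Groups did not overlap for 7 of the 80 members, against 18.1% of all genes, namely the 3 called genes and Rpl5, Rpl6, Rpl17 and Rps26. An unadjusted p under the threshold was found for 11 members. Of the members that answer to ribosomal stress by binding MDM2, Rpl5 differed by 0.15 (SE 0.06, adjusted p = 0.156), Rpl11 by 0.11 (SE 0.06, adjusted p = 0.283) and Rpl23 by 0.13 (SE 0.06, adjusted p = 0.199). Rps19, the gene first tied to Diamond-Blackfan anaemia, read between 174.1 and 194.3 CPM in controls and between 182.0 and 194.7 in mutants, and 0 of the 19 Diamond-Blackfan members passed the test. Rpsa, the laminin receptor, differed by -0.04 (SE 0.06, adjusted p = 0.711).

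The count in Mesp1Cre changed with the scaling and with covariates. Fitted on FPKM with limma, 18 members passed, 17 higher and 1 lower, and Rplp1 was no longer among them (-0.26, adjusted p = 0.0779), but in that fit the median of all genes was itself shifted by 0.15. The erythroid markers, 14 genes, were at a summed level of 5467 to 18050 CPM in controls and 1951 to 7600 in mutants, and 4 of them fell. With the erythroid level as a covariate 0 members passed by edgeR (Rplp1 -0.34, adjusted p = 0.067, Rps27l -0.36, 0.0863, Rpl13a 0.36, 0.099). By their Y-linked genes all Mesp1Cre mutants were male, but of the controls only replicates 1 and 4, so sex went partly with genotype. With sex as a covariate only Rplp1 passed (Rps27l -0.38, adjusted p = 0.0604, Rpl13a 0.30, 0.135). The part of either in the result was not tested in another way.

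**Figure D3:**
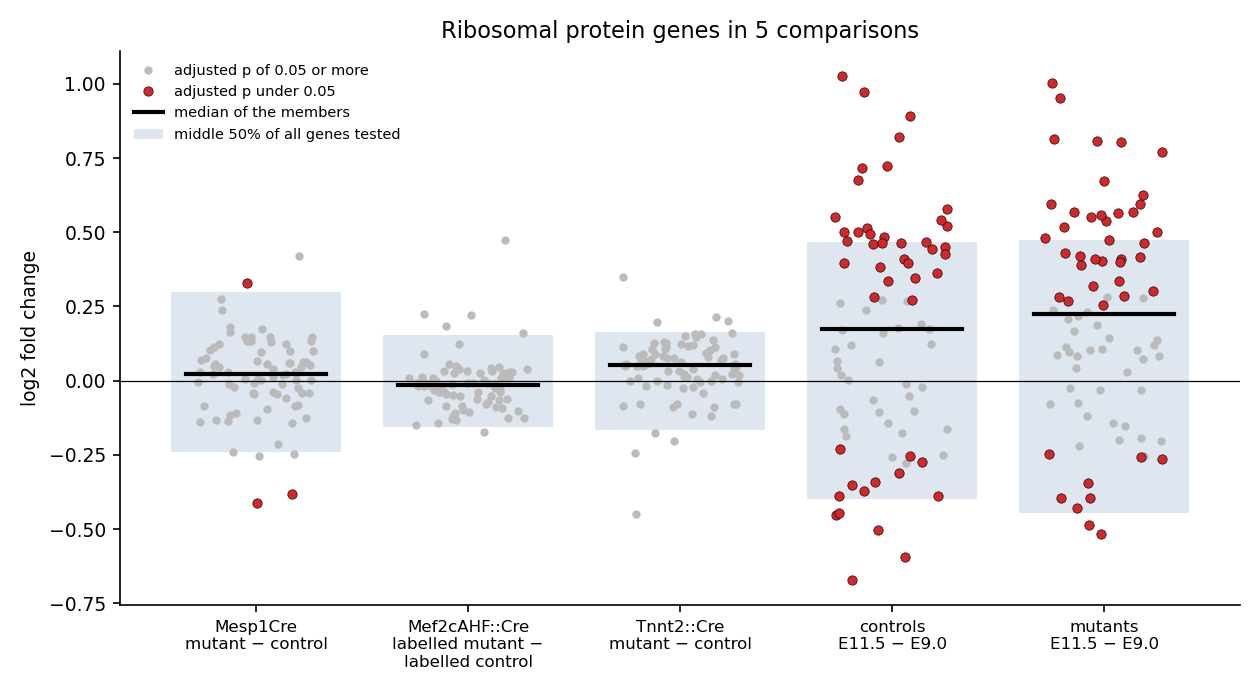
Log2 fold change of each tested member (points, vertical axis) in the 5 comparisons (horizontal axis), with called members in red, the member median as a line and the middle 50% of all genes as a blue band. In Mesp1Cre 3 members are red, in Mef2cAHF::Cre and Tnnt2::Cre 0, and in the stage comparisons 47 and 45.

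Other genes of translation that changed in Mesp1Cre mostly fell, where 6.17% of all genes rose and 5.29% fell. Of the 74 mitochondrial ribosomal proteins tested, 0 rose and 17 fell (median -0.28), led by Mrpl36 (-0.78, adjusted p = 0.00251). Of 53 factors of ribosome assembly and rRNA processing, 0 rose and 13 fell (median -0.31), led by the rRNA processing factor Rrp12 (-0.93, adjusted p = 0.0118). Of 29 initiation factors 0 rose and 7 fell (median -0.23), led by Eif2b4, a subunit of the guanine nucleotide exchange factor of eIF2 (-0.55, adjusted p = 0.0316), and of 19 genes of RNA polymerase I 0 rose and 2 fell (median -0.29, Polr2l -0.78, adjusted p = 0.0437).

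Genes whose messages share the TOP motif with the ribosomal proteins were mixed. Of 20 elongation factors and other TOP genes 2 rose and 2 fell (median -0.02), with Eif4b at 0.53 (adjusted p = 0.00862) and Eef1d at -0.43 (adjusted p = 0.0168). Of 15 genes of mTORC1 and S6 kinase signalling 2 rose and 0 fell, with Pdcd4, an inhibitor of eIF4A that S6 kinase marks for degradation, at 1.07 (adjusted p = 0.000153). Of 4 ribosomal proteins with symbols outside the rule, Fau, the source of RPS30, rose (0.39, adjusted p = 0.00473). The 3 members that changed and these lists were compared by counts alone.

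**Figure D4:**
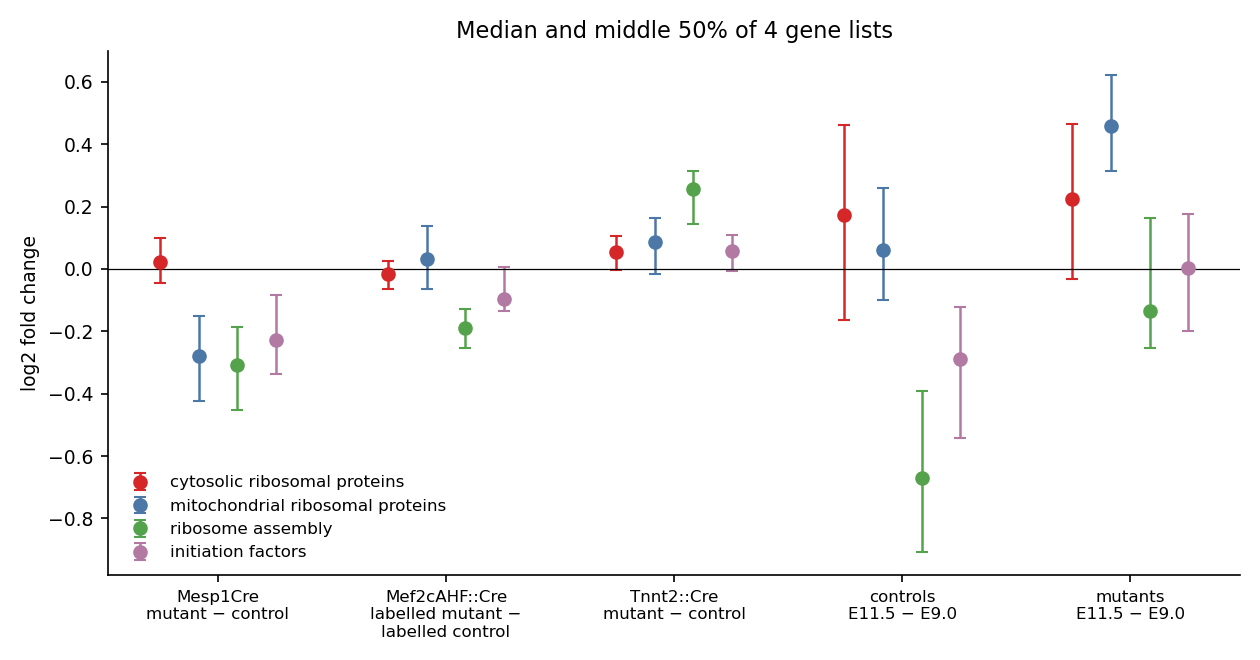
Median log2 fold change (points) and middle 50% (bars) of the ribosomal protein genes and of the other gene lists in each comparison. In Mesp1Cre the member median is 0.02, while those of ribosome assembly and of the mitochondrial ribosomal proteins are -0.31 and -0.28.

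In the right ventricle and outflow tract of Mef2cAHF::Cre embryos at E11.5, 0 of 80 members passed edgeR's test in either direction, 4 had an unadjusted p under the threshold, and 2.85% of all genes passed. The DESeq2 Wald test called 1 member. The median log2 fold change of labelled mutant against labelled control was -0.02, against -0.01 over all genes, with 28 members above 0. The largest difference was in Rpl30, which binds a kink-turn in ribosomal RNA and overlaps SNORA72 on its own strand: 149.8, 236.7 and 179.3 CPM in libraries labelled control and 280.8, 284.2 and 221.3 in those labelled mutant (188.6 ± 44.2 and 262.1 ± 35.4, SD, n = 3 and 3). The groups overlapped, since labelled control replicate 2 lay above labelled mutant replicate 3, and the difference did not pass (0.48, SE 0.16, adjusted p = 0.163). Read by the column names, the signs turn and still 0 members pass.

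In this line 6 of 80 members had groups that did not overlap, against 23.9% of all genes, among them Rpl3, Rpl4, Rpl39 and Rps3. Rpl39 differed by 0.23 (SE 0.09, adjusted p = 0.223) and Rpl3 by -0.17 (SE 0.07, adjusted p = 0.22). The genes that changed in Mesp1Cre gave 0.01 for Rplp1 (SE 0.11), 0.22 for Rps27l (SE 0.11) and -0.15 for Rpl13a (SE 0.08), with adjusted p of 0.972, 0.318 and 0.41. Elsewhere in the translation lists, 3 of 53 assembly genes fell, led by the nucleolar GTPase Gnl3 (-0.47, adjusted p = 0.0255). Of these 53 genes 4 were above 0 by the labels and 19 had an unadjusted p under the threshold (median -0.19). By the column names these signs turn. Of 20 elongation and TOP genes 1 fell (Eef1g, -0.30, adjusted p = 0.0473) and 2 of 15 mTORC1 genes fell. None of 75 mitochondrial ribosomal proteins and 0 of 29 initiation factors changed.

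In Tnnt2::Cre hearts, in which Kmt2d was deleted in cardiomyocytes, 0 of 81 members passed the test in edgeR and in DESeq2, 1 had an unadjusted p under the threshold, and 0.293% of all genes passed. The median was 0.05, with 59 members above 0, against 0.00 over all genes. Rpl30 had the largest positive difference, at 371.5, 351.3 and 407.9 CPM in controls and 555.6, 473.4 and 409.8 in mutants, and it was 1 of 3 members without overlap, against 16.9% of all genes, the others being Rpl3 and Rpl4. Mutant replicate 3 stood just above control replicate 3, and the difference did not pass (0.35, SE 0.13, adjusted p = 0.352). The stalk genes differed by -0.11 (Rplp0), -0.18 (Rplp1) and -0.09 (Rplp2), with adjusted p of 0.77, 0.734 and 0.827. None of the translation lists held a called gene in either direction by edgeR, although 22 of the 53 assembly genes had an unadjusted p under the threshold and 52 of the 53 were above 0 (median 0.26).

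Whether a member answered differently in one line than in another was tested as an interaction over all 20 libraries. Between Mesp1Cre and Mef2cAHF::Cre, 3 of 80 members differed, against 11.3% of all genes, among them Rpl13a by 0.46 (SE 0.13, adjusted p = 0.0222) and Rps27l by -0.62 (SE 0.18, adjusted p = 0.027). Rps27l read 30.2, 30.6 and 38.7 CPM in the Mef2cAHF::Cre libraries labelled control and 39.8, 40.1 and 36.1 in those labelled mutant, groups that overlapped. Rpl13a read 173.3, 213.7 and 197.2 in those labelled control and 178.3, 178.4 and 170.4 in those labelled mutant, also with overlap.

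These differences turned on the labels of Mef2cAHF::Cre. By the column names 0 members differed, against 1.63% of all genes, with Rpl13a at 0.16 (adjusted p = 0.569) and Rps27l at -0.18 (0.675). By the labels, leaving out labelled control replicate 2 also left 0 members, and leaving out labelled control replicate 1 or any 1 of the labelled mutant libraries left 1. Between Mesp1Cre and Tnnt2::Cre 0 of 80 members differed by edgeR, 3 at an unadjusted p, against 3.04% of all genes, with Rplp1 at -0.25 (SE 0.18, adjusted p = 0.482) and Rps27l at -0.46 (SE 0.17, adjusted p = 0.152), and without Tnnt2::Cre mutant replicate 2 the count was 1. Between Mef2cAHF::Cre and Tnnt2::Cre 0 differed, 3 at an unadjusted p, against 3.19% of all genes by the labels, and 0, 1 at an unadjusted p, against 0% by the column names.

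Between E9.0 and E11.5 many more members differed than between genotypes. The stage comparison set Tnnt2::Cre hearts at E11.5 against Mesp1Cre hearts at E9.0. Stage, Cre line and any difference in how the lines were sequenced therefore cannot be told apart. Total counts were 36809972 to 45341870 in the E11.5 controls and 25581534 to 28790705 in the E9.0 controls. In controls 33 of 80 members were higher at E11.5 and 14 were lower, against 19.6% higher and 18.8% lower of all genes (38.3% in all), and the member median was 0.17 against -0.01. Of 47 tested 60S members 20 were higher and 5 lower, and of 30 40S members 11 were higher and 9 lower. Values of 51 of 80 members did not overlap between the stages, against 45.4% of all genes.

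The largest rises in controls were of 60S proteins. Rpl23a (mm9 chr11:77994434-77997086, minus strand), which sits at the exit of the peptide tunnel and overlaps Tlcd1 on the other strand and Snord42b on its own, read 501.9, 439.2, 453.6 and 486.5 CPM at E9.0 and 968.3, 907.4 and 1063 at E11.5 (470.3 ± 28.9 and 979.6 ± 78.4, SD, n = 4 and 3) (1.03, SE 0.09). Rpl13 (mm9 chr8:125626250-125629144, plus strand), which overlaps Snord68 on its own strand, read 689.8, 579.9, 603.3 and 661.4 at E9.0 and 1275, 1131 and 1412 at E11.5 (0.97, SE 0.10). Rpl17, which lines the tunnel, read 286.0, 254.2, 275.7 and 279.1 at E9.0 and 534.8, 465.0 and 559.4 at E11.5 (0.89, SE 0.08). In all 3 the stages stood far apart without overlap, and all passed the test with adjusted p of 8e-06, 2.5e-05 and 1.7e-05. Every coding window of these genes had an identical match elsewhere in mm9. Places with at most 2 mismatches numbered 29 for Rpl23a, 13 for Rpl13 and 43 for Rpl17. How the counting treated such reads is not given.

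The large falls included both subunits. Rpl18 (mm9 chr7:52970827-52976204, plus strand), which overlaps Sphk2 on the other strand, read 398.0, 353.3, 372.7 and 431.0 CPM at E9.0 and 265.0, 242.8 and 282.8 at E11.5 (-0.59, SE 0.09, adjusted p = 0.000422). Rps28 (mm9 chr17:33959997-33961440, minus strand), a Diamond-Blackfan gene at the messenger RNA exit that overlaps Kank3 on the other strand, read 196.3, 177.7, 177.1 and 163.8 at E9.0 and 117.9, 120.9 and 148.1 at E11.5 (-0.50, SE 0.10, adjusted p = 0.00164). In neither gene did the groups overlap, and in each the E11.5 libraries were the lower.

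Named roles split as well. All 3 stalk members were higher at E11.5, Rplp1 by 0.54 (adjusted p = 0.00177), Rplp0 by 0.47 (0.00166) and Rplp2 by 0.27 (0.0251), the last lost without Tnnt2::Cre control replicate 3 (0.20, 0.0602), Mesp1Cre control replicate 2 (0.26, 0.0538) or replicate 3 (0.25, 0.0535). Rpsa was higher by 0.68 (SE 0.08, adjusted p = 5.3e-05). Among the MDM2-binding members Rpl11 (0.41, adjusted p = 0.00527) and Rpl23 (0.55, 0.000279) were higher and Rpl5 was at -0.19 (0.098). Of the 19 Diamond-Blackfan members 6 were higher and 3 lower, with Rps19 at -0.35 (0.00523). Of the paralogues Rps27l was lower (-0.39, 0.0125), a call lost without Tnnt2::Cre control replicate 1 (-0.38, 0.0504) or replicate 2 (-0.26, 0.074).

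In mutants the comparison gave 36 members higher at E11.5 and 9 lower of 80, against 18.8% and 17.1% of all genes (35.9% in all), with a member median of 0.22 against 0.01. Of the 47 60S members 23 were higher and 6 lower, and of the 30 40S members 11 were higher and 3 lower. Whether the subunits differed was not tested in either comparison. Rpl13 read 632.4, 621.5, 614.5 and 595.1 CPM at E9.0 and 1379, 1096 and 1273 at E11.5 (1.00, SE 0.09, adjusted p = 7.3e-05). Rpl23a (0.95, SE 0.10, adjusted p = 0.000203) and Rpl17 (0.81, SE 0.08, adjusted p = 0.000135) followed, with Rpl17 at 317.7, 308.9, 287.0 and 306.8 at E9.0 and 592.7, 507.2 and 529.1 at E11.5. The largest fall was in Rps28, at 201.0, 211.1, 178.4 and 183.9 CPM at E9.0 and 143.9, 136.6 and 130.3 at E11.5 (-0.52, SE 0.09, adjusted p = 0.00199). The stages did not overlap in any of these genes, nor in 51 of the 80 members, against 43.9% of all genes.

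Rpl39 (mm9 chrX:34622515-34625397, minus strand), a short protein of the peptide tunnel, read 306.6, 425.0, 324.8 and 353.5 CPM in E9.0 mutants and 286.2, 219.4 and 260.0 in E11.5 mutants (-0.49, SE 0.13, adjusted p = 0.0165). The call was lost without Tnnt2::Cre mutant replicate 2 (-0.39, adjusted p = 0.0589) or replicate 3 (-0.49, 0.0565). Rpl18 read 342.1, 370.6, 349.5 and 331.7 at E9.0 and 283.3, 227.8 and 275.4 at E11.5 (-0.43, SE 0.09, adjusted p = 0.00617), and here too the stages did not overlap. Rplp1, lower in the E9.0 mutants, differed between the stages by 0.81 (SE 0.13, adjusted p = 0.00148), Rplp0 by 0.52 (0.00294) and Rplp2 by 0.19 (0.143). Rps27l differed by 0.09 (SE 0.13, adjusted p = 0.638).

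The calls in the controls and in the mutants, which share no library, were set against each other. In both, 38 members were called, which was 80.9% of the 47 in controls and 84.4% of the 45 in mutants, 32 of them higher and 6 lower, and all 38 in the same direction. Over the 80 members Pearson's r between the log2 fold changes was 0.925, given as a description, since genes are not replicates and both contrasts set the same pair of lines and stages against each other. All 14 erythroid markers were higher at E11.5 in both comparisons, with 104900 to 162200 CPM summed in the controls against 5467 to 18050 at E9.0. Markers of other cell types also differed, where 19.6% of all genes were higher in controls and 18.8% in mutants. In controls 6 of 8 macrophage, 4 of 4 epicardial and 4 of 4 platelet markers were higher. In mutants 7 of 8, 4 of 4 and 3 of 4 were. Of 8 cardiomyocyte markers 1 was higher and 3 lower in controls, and 1 and 4 in mutants. Of 7 endothelial markers 3 were higher and 1 lower in controls, and 2 and 2 in mutants. With the erythroid level as a covariate 0 members passed by edgeR in controls and 15 in mutants. That level, as mean log2 CPM, ran from 4.96 to 6.52 in E9.0 controls and from 9.19 to 9.89 in E11.5 controls. In mutants it ran from 4.07 to 5.93 and from 6.98 to 9.61. The stages did not overlap in it, so these fits can hardly tell the erythroid level apart from stage. The fitted differences in controls were then 0.89 for Rpl23a, 0.84 for Rpl13, 0.80 for Rpl17, 0.89 for Rplp1 and -0.96 for Rpl18, and -0.16 for Rps28 and 0.08 for Rps4x. All E9.0 mutants were male by their Y-linked genes, but of the E11.5 mutants only replicate 3, so sex went partly with stage there. With sex as a covariate 16 passed in mutants. The share of all genes passing with a covariate is not given, so the counts from these fits have no baseline here.

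**Figure D5:**
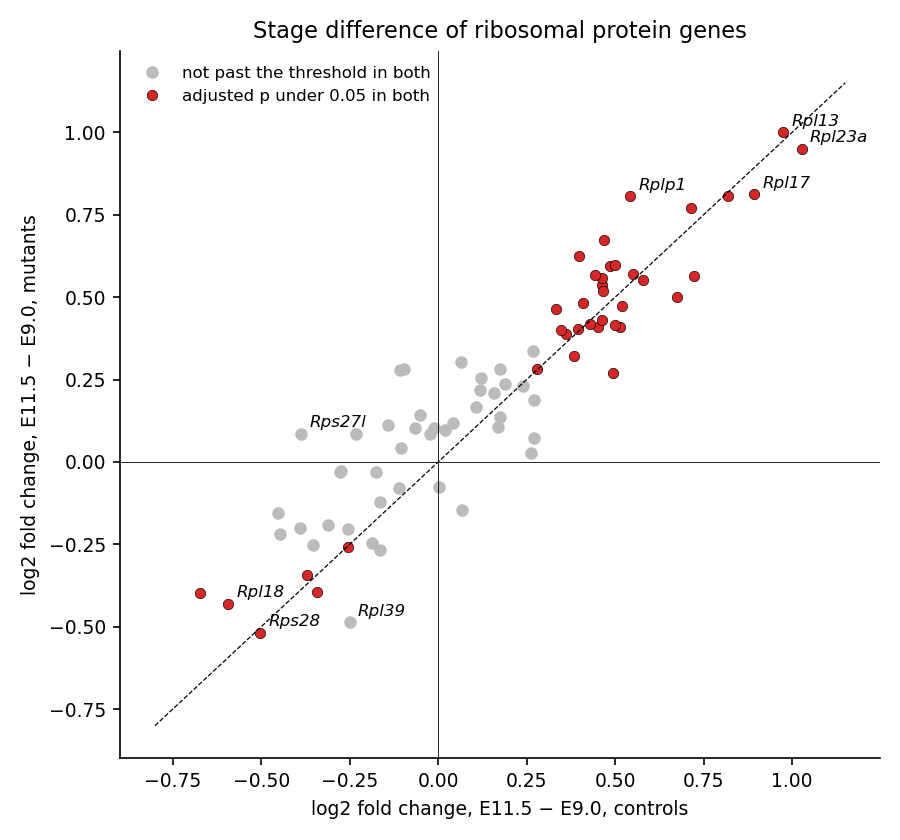
Log2 fold change from E9.0 to E11.5 of the 80 tested members (points) in controls (horizontal axis) and in mutants (vertical axis). Rpl23a, Rpl13 and Rpl17 lie at the upper right and Rps28 and Rpl18 at the lower left.

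The members moved the other way in the other E11.5 tissue. Against the E9.0 controls, the right ventricle and outflow tract libraries labelled mutant had 68 of 80 members lower and 1 higher, where 20% of all genes were lower, with a member median of -0.58 against -0.01. Those labelled control had 61 lower and 1 higher, where 17.5% of all genes were lower, with a median of -0.54 against 0.00. Of the 47 members called in whole hearts only 16 and 17 had the same sign here, and 14 in each case were also called in it. Rpl17 was the member that was higher in both (0.22, adjusted p = 0.0162, and 0.28, 0.0274), Rps28 (-0.94 and -0.92) was lower as in whole hearts, and Rpl23a was lower (-0.42 and -0.40) where it was higher in whole hearts. Rpl13 was at -0.10 and -0.09 and did not pass (0.28 and 0.469). Tissue, line and any difference in how the lines were sequenced cannot be told apart here either.

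Genes of the machinery that builds ribosomes were mostly lower at the later stage in controls, where 19.6% of all genes were higher and 18.8% lower. There 41 of 53 genes of ribosome assembly and rRNA processing were lower at E11.5 and 1 was higher (median -0.67), led by nucleolin, Ncl (-1.65), and 11 of 19 genes of RNA polymerase I were lower and 0 higher. Of 29 initiation factors 15 were lower and 2 higher, from Eif2s2 at -0.97 to Eif2b3 at 0.50. Of the mitochondrial ribosomal proteins 14 of 75 were higher, near the share of all genes, and 4 lower, from Mrps12 at 0.70 to Mrpl1 at -0.63. The elongation and TOP genes were mixed, with 3 of 20 higher and 5 lower. In mutants 18.8% of all genes were higher and 17.1% lower. Of the 53 assembly genes 8 were lower there, near the share of all genes, and 3 higher (Ncl -0.95, Nop10 0.56). Of the 75 mitochondrial ribosomal proteins 37 were higher and 0 lower, led by Mrps12 at 1.36.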

How the data were processed

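RNA-seq was analysed for 20 libraries. The authors aligned 100-base paired reads to mm9 (the submitters' processing notes name TopHat2 2.0.8b) and counted them per gene with featureCounts, and the deposited counts were not normalized. The FPKM values that the authors deposited beside them were computed with USeq as counts per length and total. The 20 columns of variance-corrected values were not used. Groups followed sample titles. For Mef2cAHF::Cre the column names give opposite genotypes, and for Mesp1Cre the protocol text gives E11.5 where labels and paper give E9.0. Labels and paper also differ on library kit and sequencer. The members and gene lists were chosen with earlier results of these data known.

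Counts were tested with edgeR 4.0.16 (R 4.3.3): filterByExpr, TMM, the quasi-likelihood F test, and Benjamini-Hochberg adjustment over all genes tested, with a threshold of 0.05. The share of all genes at an unadjusted p is not given, so counts at an unadjusted p have no baseline here. Each comparison was fitted by itself without covariates, and differences between lines in 1 fit of 6 groups. The alternatives were DESeq2 1.42.0, its size factors, other filters, limma 3.58.1 on log2(FPKM + 0.1) and log2(FPKM + 1), scaling without ribosomal protein or hemoglobin genes, covariates, blocks and each replicate left out. A library was taken as male when its Y-linked genes reached 10 CPM, and the erythroid covariate was the mean log2 CPM (prior count 2) of 14 markers. On simulated counts with 200 genes changed, the Mesp1Cre fit recovered 99.5% of these 200 (16097 genes). The interaction of Mesp1Cre with Tnnt2::Cre recovered 71.5% (17571 genes). The size of change and the spread between libraries set there are not given here. Recovery at the differences and spread of the members themselves was not tested. Copies were sought with BLAST+ 2.17.0, and start sites came from RefSeq (GRCm38.p6). Tables and figures were made with Python 3.11.15, pandas 2.3.3 and matplotlib 3.10.9. Named genes were the 3 largest rises and 3 largest falls past the threshold in each comparison, the paralogue pairs, the stalk genes and Rpsa, Rpl5, Rpl11, Rpl23, Rps19 and Kmt2d, and, from other lists, the largest rise and fall. Rpl30, Rpl4, Rpl6, Rps3, Rps26, Rps23, Rps24, Rps25, Rpl32 and genes named as copies were chosen after their values were seen. Some members that fall under the rule are not reported here.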

Additional observations from a re-analysis of the deposited data

Results flagged for a closer look

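In groups of 4 libraries, 3 members had 1 library far from the other 3, among 58 checks of a named gene in a group, where chance gives such a library in about 1 of 20. At that rate about as many would arise by chance as were found. Rpl39l stood at 0.127 CPM (3 counts) in Mesp1Cre mutant replicate 1 and at 0 in the other mutants. With the others at 0 any count would be flagged, so nothing is drawn from it. Rps4x, the X-linked 40S protein, stood at 980.4 CPM in Mesp1Cre mutant replicate 1, against 926.3 to 929.4 in the others, and Rpl10 at 767.1 CPM in Mesp1Cre control replicate 2, against 845 to 860.4.

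The effect of genotype differed between Mesp1Cre and Mef2cAHF::Cre, by the labels, for Rpl13a (0.46, SE 0.13, adjusted p = 0.0222) and Rps27l (-0.62, SE 0.18, adjusted p = 0.027), as log2 differences from the edgeR fit of 6 groups. By the column names the differences were 0.16 and -0.18 and neither gene passed.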

How the results depend on the processing

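The count of members past the threshold in Mesp1Cre was 3, and it was 5 with the DESeq2 Wald test, 18 and 19 on log2(FPKM + 0.1) and log2(FPKM + 1), 0 with the erythroid covariate, 1 with sex and 2 to 5 without 1 replicate (5 without mutant replicate 2). In Mef2cAHF::Cre it was 0, and 1 with the DESeq2 Wald test, without a filter, with sex, or without labelled control replicate 2 (range without 1 replicate 0 to 1). In Tnnt2::Cre it was 0 under all alternatives run. Between Mesp1Cre and Mef2cAHF::Cre 3 differed, 0 by the column names, and 0 to 3 without 1 replicate, and between Mesp1Cre and Tnnt2::Cre 0, and 0 to 1. For the stages it was 47 and 45, 0 and 15 with the erythroid covariate and, in mutants, 16 with sex. The erythroid level did not overlap between the stages, so that fit can hardly tell it apart from stage. The share of all genes passing with a covariate is not given. The member median relative to all genes was -0.028 in mutants with the erythroid covariate, and -0.58 and -0.54 in the right ventricle and outflow tract libraries labelled mutant and control. The sign turned with the erythroid covariate for Rplp0 (-0.0115) and Rps27l (0.18) in controls. The causes were not tested. For low rows such as Rpl3l, depth limits any statement.

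Replicate numbers are shared between the groups of a line. Deviations of same-numbered libraries had correlations of 0.044, -0.03, -0.013 and 0.086 in Mesp1Cre, 0.177, -0.015 and 0.06 in Mef2cAHF::Cre and 0.033, -0.036 and 0.062 in Tnnt2::Cre. The highest with another number were 0.043, 0.063, 0.05 and -0.001, then -0.012, 0.07 and 0.158, then 0.024, 0.028 and 0.012. Neither was steadily the higher, and the numbers were not taken as pairs. In Mesp1Cre the sample descriptions also carry a code that same-numbered mutants and controls share. Some replicate numbers have the same code, so it does not mark each number apart. All Tnnt2::Cre libraries carry the same code, and the Mef2cAHF::Cre libraries carry none. With the replicate block the counts of members were 3, 0 and 0, and Rpl13a (0.33, adjusted p = 0.0379), Rplp1 (-0.42, 0.0183) and Rps27l (-0.38, 0.0264) still passed in Mesp1Cre.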

Other observations

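Some rows with ribosomal protein names held counts in single libraries, noticed after the values were seen. The Rps13 copy Gm10159 (mm9 chr8:89571614-89572112) had 1916 counts in Tnnt2::Cre mutant replicate 2 and 1731 in Tnnt2::Cre control replicate 3, and 0 to 5 in the other 18 libraries. In the same libraries the other Rps13 copy, Rps13-ps1, read 10.3 and 11.9 CPM, against 17.2 to 23.3 in the other 4 Tnnt2::Cre libraries. The pseudogene row RP23-173F3.1 (mm9 chrX:50251765-50252646) had 8267 counts in Mesp1Cre control replicate 1 and 8 to 67 in the other 19, and AL591436.2 (mm9 chr11:101800815-101801213) had 386 in Tnnt2::Cre mutant replicate 1 and 0 to 46 in the others. Gm10159 was not tested. RP23-173F3.1 was past the threshold in Mesp1Cre (log2 fold change -5.63, adjusted p = 0.0484) and in the stage comparison of controls (-5.85, adjusted p = 0.0394), and AL591436.2 in the stage comparison of mutants (4.6, adjusted p = 0.01), each with 1 library far above the others.

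Most members were steady between replicates, with a median coefficient of variation from 3.03% in the Mef2cAHF::Cre libraries labelled mutant to 10.3% in Tnnt2::Cre mutants. A few were not. Rps18, which overlaps Vps52 on the other strand, read 98.5, 197.8, 329.5 and 211.6 CPM in Mesp1Cre controls (45.2%) and 216.2, 219.3, 359.8 and 311.5 in mutants (25.6%). Rpl26, a protein that binds the p53 message, read 206.3, 109.4, 115.9 and 112.7 in controls (34.5%) and 130.6, 207.4, 111.3 and 199.6 in mutants (29.8%), with 1 control and 2 mutants well above the rest. Variation above 20% was seen for 5 members in Mesp1Cre controls and 3 in mutants.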
